A study of Homo sapiens with 6 samples.

Results

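The Eph receptors and ephrins were followed in HCT116 cells in which the long non-coding RNA AC010789.1 was targeted by siRNA. The 10 genes were chosen by name, as 6 receptors (EPHA1, EPHA2, EPHA4, EPHB2, EPHB3 and EPHB4) and 4 ligands (EFNA1, EFNA4, EFNB1 and EFNB2), out of 18750 genes to which the counted transcripts belonged. Of the 10 genes, 9 had counted transcripts, 27 in all, and EPHA1 was not analysed here. HCT116 is an established human colorectal carcinoma line. Cells were transfected with Lipofectamine and either a negative control siRNA (siRNA-NC, n = 3) or 1 siRNA against AC010789.1 (si-AC010789.1, n = 3), both in the same parental line. A single siRNA sequence stood for the knockdown, and the level of AC010789.1 was not analysed here. The study describes its own check of the knockdown in the sequenced samples, which was not repeated from the counts.

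Eph receptors are receptor tyrosine kinases that are bound by ephrins on the surface of a neighbouring cell. Ephrin-As are held in the membrane by a lipid anchor and mostly bind EphA receptors, whereas ephrin-Bs span the membrane and mostly bind EphB receptors. Signals run forward into the cell with the receptor and in reverse into the cell with the ephrin, and they guide adhesion, repulsion and cell sorting. In the intestinal crypt, EphB receptors are targets of Wnt signaling and help to keep proliferating cells apart from differentiated cells.

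Total counts ranged from 11277222 to 13443866 per library, and 3 counts, taken as the floor of detection, corresponded to 0.223 to 0.266 CPM, a unit that scales each count by the total of its library. Floors cover counting error only. Among markers of colorectal epithelium, 6 of 9 had counted transcripts, and KRT19, CDX2 and VIL1 were not analysed here. KRT8 (444 to 850 CPM), KRT18 (351 to 535 CPM) and ELF3 were abundant. EPCAM (3.10 to 5.59 CPM), CDH1 (0.675 to 1.05 CPM) and LGALS4 (0 to 0.225 CPM) were low or near 0. For these 3 genes the counts thus go against an epithelial profile, but they cover only the transcripts that were counted. The paper reports E-cadherin, the protein of CDH1, in HCT116 cells. All 6 counted markers of colorectal epithelium together summed to 1070 to 1310 CPM with siRNA-NC and 861 to 1110 CPM with si-AC010789.1. Markers of leukocytes, endothelium and fibroblasts (5 of 8 with counted transcripts) summed to 52.3 to 60.8 CPM and 48.7 to 58.1 CPM, of which COL1A1 made up 37.8 to 48.0 CPM. The groups did not overlap for ELF3 (76.8 to 91.3 CPM with siRNA-NC and 59.4 to 68.7 CPM with si-AC010789.1), CDH1 (0.675 to 0.709 and 0.799 to 1.05 CPM), CD68 (5.33 to 8.30 and 2.19 to 4.71 CPM) and COL3A1 (2.56 to 3.99 and 1.76 to 2.53 CPM). For the other counted markers the groups overlapped. Over all genes tested, the groups did not overlap in 25.1%, so the markers without overlap are no result about cell type. The part of these markers in the results was not tested.

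Levels of different genes were compared in TPM, a unit that divides each count by the annotated length of its transcript before scaling. EPHA2 was the most abundant of the family genes with counted transcripts, with a mean of 122.8 TPM over the 6 libraries (lowest 113.4, highest 132.4). It made up between 70.9% and 74.2% of the summed level of the receptors with counted transcripts in every library. That sum leaves out EPHA1 and other receptors without counted transcripts. Next stood EFNA1, a preferred ligand of EPHA2, with 43.3 TPM (33.0 to 51.6), and EPHB4 with 38.5 TPM (36.2 to 40.8). The ranges of EFNA1 and EPHB4 overlapped, so their order was not resolved, and neither reached the range of EPHA2. These levels take in transcripts without a coding sequence. Protein-coding transcripts held 27.5% to 57.0% of EFNA1 counts and 43.5% to 64.8% of EPHB4 counts over the 6 libraries. For EPHA2 they held 94.6% to 97.2%. The order is thus one of all counted RNA, and no order was made from coding transcripts alone.

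The other ligands among the 10 genes were less abundant. EFNA4 stood at 9.72 TPM (7.17 to 11.01), and its range overlapped those of its family neighbours EFNA3 (8.36 to 11.4) and EFNA5 (7.57 to 10.2). EFNB2, the preferred ligand of EPHB4, had 5.19 TPM (4.602 to 6.032) and EFNB1 had 4.99 TPM (4.17 to 5.77), again with overlapping ranges. EPHB2 followed with 3.01 TPM (2.73 to 3.44). EPHB3 (at most 0.0813 TPM) and EPHA4 (at most 0.0542 TPM) lay at the bottom of the order, with at most 2 counts in a library. Of the EphB receptors that mark crypt cells, EPHB2 was thus counted at a low level and EPHB3 at or under 2 counts. A level here covers only the transcripts of the gene that were counted, which were 5 of 7 annotated ones for EPHB2, 1 of 3 for EPHB3 and 1 of 14 for EPHA4.

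**Figure D1:**
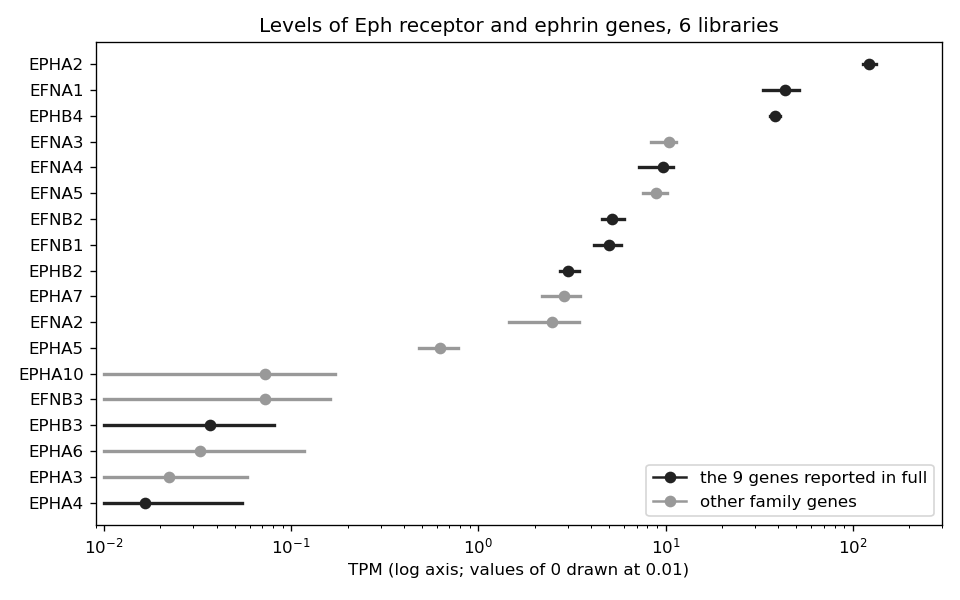
Level of each Eph receptor and ephrin gene in TPM on a log axis. Points are means over 6 libraries, lines run from the lowest to the highest library, and values of 0 are drawn at the left edge. EPHA2 stands apart from the other genes at 122.8 TPM, with EFNA1 and EPHB4 next. Levels cover coding and non-coding transcripts together.

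Summed over classes, the receptors with counted transcripts in the family reached 167 ± 10.6 TPM with siRNA-NC and 169 ± 3.73 TPM with si-AC010789.1 (SD, n = 3 each). The ligands reached 88.4 ± 7.27 TPM and 81.7 ± 6.81 TPM. Both differences were smaller than the SD within a group. The sums also take in transcripts without a coding sequence, among them those of EFNA1 and EPHB4.

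The comparison asked whether silencing AC010789.1 moved the RNA of these genes. Gene sums of the 7 genes that passed the filter on low counts (EPHA2, EPHB2, EPHB4, EFNA1, EFNA4, EFNB1 and EFNB2) were close between the groups, with log2 fold changes from -0.19 to 0.06. Of these 7 genes, 0 passed an adjusted p of 0.05 in edgeR's quasi-likelihood test, against 0.982% of the 13750 genes tested. At an unadjusted p under 0.05 the count was also 0, against 17.2% of all genes. DESeq2 called 0 of the 7 and gave an adjusted p for 4 of them, against 3.78% called of all genes. That share is over all 13750 genes, with or without an adjusted p. The CPM of the 2 groups did not separate for any of the 7, against 25.1% of all genes. Against such shares, 0 of 7 is no result about these genes as a set. The median log2 fold change was -0.05 over the 7 genes, 2 higher and 5 lower with si-AC010789.1, and -0.00066 over all genes tested. In bulk RNA, fewer cells of a type and less RNA per cell cannot be told apart.

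EPHA2 (ENSG00000142627.12, chr1:16124337-16156087, minus strand, GRCh38) is a receptor that is widely expressed in epithelial cancers. It had 211, 208 and 227 CPM in siRNA-NC replicates 1, 2 and 3, and 233, 216 and 226 CPM in si-AC010789.1 replicates 1, 2 and 3. The groups overlapped, since replicate 3 of the control lay above 2 of the knockdown libraries. Its log2 fold change was 0.06 (SE 0.053), with a 95% interval of 0.955 to 1.14 in fold (edgeR, adjusted p = 0.616). With the most counts of the 7 genes, EPHA2 had the narrowest interval.

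EPHB4 (ENSG00000196411.9, chr7:100802565-100827521, minus strand), a receptor known from vein and vessel formation and expressed in colorectal tumors, had 77.4, 84.0 and 87.8 CPM with siRNA-NC. With si-AC010789.1 it had 85.3, 78.3 and 82.6 CPM, all within the range of the control. The log2 fold change of the gene sum was -0.02 (SE 0.069), or 0.880 to 1.11 in fold (edgeR, adjusted p = 0.927). The division of this sum among transcripts is described after the ligands.

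EPHB2 (ENSG00000133216.16, chr1:22710839-22921500, plus strand), a receptor of crypt progenitor cells, had 5.67, 5.66 and 5.18 CPM with siRNA-NC and 5.24, 5.51 and 4.86 CPM with si-AC010789.1. Between 60 and 75 counts per library stood behind these values, and the groups overlapped. Exons of EPHB2 overlap MIR4253 on the other strand. This gave a log2 fold change of -0.08 (SE 0.13), or 0.759 to 1.18 in fold (edgeR, adjusted p = 0.821; DESeq2 gave no adjusted p).

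EPHB3 (ENSG00000182580.2, chr3:184561784-184582409, plus strand) and EPHA4 (ENSG00000116106.11, chr2:221418027-221574202, minus strand) did not pass the filter. EPHB3 held 2, 0 and 2 counts with siRNA-NC and 0, 2 and 0 counts with si-AC010789.1. EPHA4 held 2, 0 and 2 counts with siRNA-NC and no count in the other group. All values lay under the floor of 3 counts, so no fold is given, and a difference in the counted transcripts was not detectable at this depth.

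EFNA1 (ENSG00000169242.11, chr1:155127460-155134857, plus strand), a ligand first described as a product of TNF-stimulated endothelium, had 31.7, 36.8 and 29.7 CPM with siRNA-NC. With si-AC010789.1 it had 27.9, 32.3 and 26.2 CPM. The means were 32.8 ± 3.65 and 28.8 ± 3.16 CPM (SD, n = 3 each), and the groups overlapped, since 1 knockdown library lay above 2 control libraries. It had the lowest fold change of the 7 genes, at -0.19 on the log2 scale (SE 0.12), or 0.719 to 1.07 in fold (edgeR, adjusted p = 0.486).

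EFNA4 (ENSG00000243364.7, chr1:155063731-155069553, plus strand) lies on the same chromosome as EFNA1, and its exons overlap AL691442.1 on the same strand, so that its counts are uncertain. Its values were 3.99, 5.73 and 6.23 CPM with siRNA-NC and 6.03, 5.19 and 5.26 CPM with si-AC010789.1. The spread of the control group came from replicate 1, its lowest library, and spanned all 3 knockdown values. Its log2 fold change was 0.04 (SE 0.20), or 0.739 to 1.43 in fold (edgeR, adjusted p = 0.939).

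The transmembrane ligands EFNB1 and EFNB2 signal in reverse through a cytoplasmic tail with a PDZ-binding end. EFNB1 (ENSG00000090776.5, chrX:68828997-68842147, plus strand) had 8.51, 9.28 and 8.33 CPM with siRNA-NC and 8.21, 7.11 and 9.88 CPM with si-AC010789.1. The 2 extremes were both knockdown libraries, and the log2 fold change was -0.05 (SE 0.15), or 0.748 to 1.24 in fold (edgeR, adjusted p = 0.901).

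EFNB2 (ENSG00000125266.7, chr13:106489731-106535662, minus strand) had 11.4, 12.6 and 14.1 CPM with siRNA-NC and 10.7, 11.7 and 11.5 CPM with si-AC010789.1. Its means were 12.7 ± 1.34 and 11.3 ± 0.541 CPM (SD, n = 3 each), and the lowest control library lay inside the knockdown range. Its exons overlap AL138689.2 on the other strand, as those of EPHA4 overlap AC079834.2. EFNB2 had a log2 fold change of -0.17 (SE 0.12), or 0.731 to 1.08 in fold (edgeR, adjusted p = 0.499). The intervals of all 7 genes included no change, and a fold of 1.5 lay outside each of them.

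**Figure D2:**
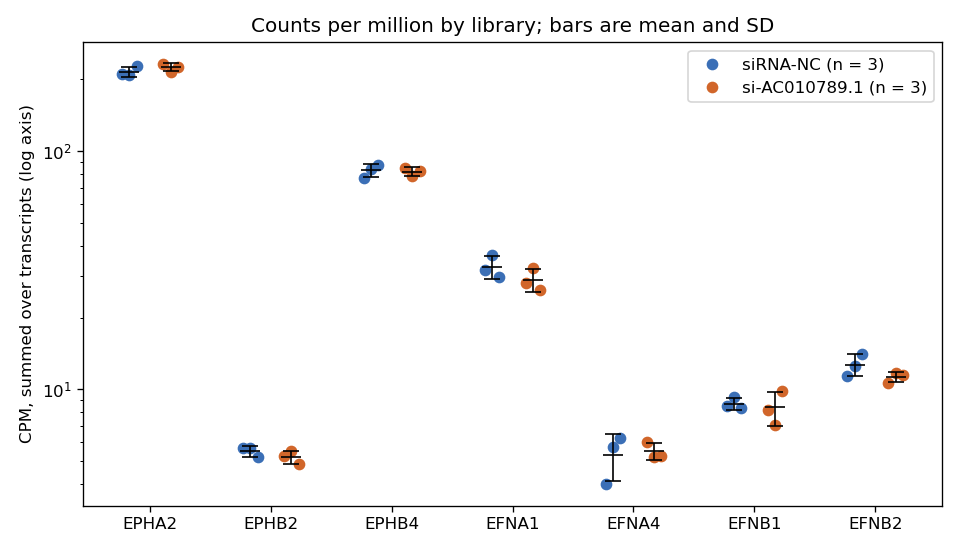
CPM of the 7 genes that passed the filter, on a log axis, with 1 point per library and bars for the mean and SD of each group (n = 3). The points of the 2 groups overlap for every gene, from EPHA2 above 200 CPM to EFNA4 and EPHB2 near 5 CPM.

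The share of EPHB4 counts in protein-coding transcripts did not overlap between the groups. This was so for 10.8% of 9789 genes with coding and other transcripts. The shares of EPHA2, EPHB2 and EFNA1 overlapped between the groups. Of 7 counted EPHB4 transcripts, 3 held most counts. EPHB4-201 (ENST00000358173, 17 exons, 4329 nucleotides) encodes the full receptor of 987 residues. EPHB4-202 (ENST00000360620, 16 exons) lacks exon 16 of EPHB4-201, which has 156 nucleotides, and encodes 935 residues. Its exon 1 is also shorter, with 137 nucleotides against 521 in EPHB4-201. EPHB4-206 (ENST00000487222, 5058 nucleotides) is annotated as a retained-intron transcript with no coding sequence, begins inside intron 1 and shares 3805 nucleotides with EPHB4-201. It holds 1253 bases of intron 1 (chr7:100824274-100825526) and lacks exon 1 (chr7:100826979-100827499), in which the coding sequence of EPHB4-201 starts.

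**Figure D3:**
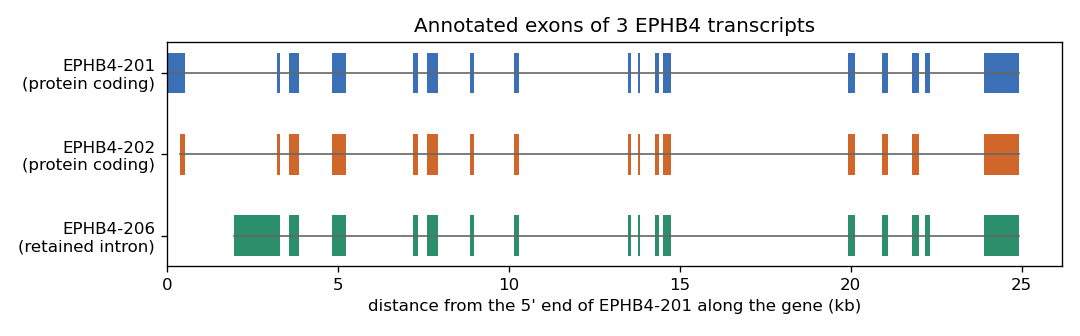
Annotated exons (boxes) and introns (lines) of 3 EPHB4 transcripts in GENCODE v29, against distance in kb from the 5′ end of EPHB4-201 along the gene. EPHB4-206 starts with 1253 bases of intron 1 joined to exon 2, and EPHB4-202 has a shorter exon 1 and lacks the exon before the last.

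EPHB4-206 shares 3805 nucleotides with EPHB4-201, holds 1253 of its own and lacks 524 of EPHB4-201. EPHB4-202 lacks 540. Of the places where these transcripts differ, 2 junctions are shown as read from the GRCh38 transcripts. In the first pair the capitals mark the 15 bases before exon 2 (exon 2 begins in lower case, chr7:100824259-100824273), which come from exon 1 in EPHB4-201 (chr7:100826979-100826993) and from intron 1 in EPHB4-206 (chr7:100824274-100824288).
EPHB4-201: CCGCAGCTTTGGAAGagaccctgctgaaca
EPHB4-206: CTCTGTCTGTCTCAGagaccctgctgaaca

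In the second pair the lower case is the end of exon 15 (chr7:100805501-100805515), and the capitals mark the 15 bases after it, from exon 16 in EPHB4-201 (chr7:100805307-100805321) and from the last exon in EPHB4-202 (chr7:100803576-100803590). All are on the minus strand.
EPHB4-201: ccgggagaatggcggGGCCTCACACCCTCT
EPHB4-202: ccgggagaatggcggGGACCTGCTCCGAAT

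EPHB4-206 held 449, 599 and 538 counts with siRNA-NC and 338, 367 and 342 counts with si-AC010789.1. All 3 knockdown libraries were below all 3 control libraries. EPHB4-206 had a log2 fold change of -0.55 (SE 0.13), with an unadjusted p of 0.00757 and an adjusted p of 0.576 in edgeR's test over 44319 transcripts, and an adjusted p of 0.0126 in DESeq2. It was thus called by 1 of the 2 tools. The exact two-sided permutation test of its CPM gave p = 0.1, the smallest that 3 against 3 libraries allow.

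The coding transcripts stood the other way. EPHB4-201 held 377, 484 and 596 counts with siRNA-NC and 547, 549 and 570 counts with si-AC010789.1, with overlapping groups and a log2 fold change of 0.25 (SE 0.16; edgeR, adjusted p = 0.942). EPHB4-202 held 24, 0 and 0 counts with siRNA-NC and 70, 46 and 91 counts with si-AC010789.1. These groups did not overlap, but the log2 fold change of 3.02 had an SE of 1.71 and did not pass edgeR (adjusted p = 0.930) or DESeq2 (adjusted p = 0.874).

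As a share of all EPHB4 counts, the protein-coding transcripts took 45.9%, 43.5% and 50.9% in the control and 63.2%, 60.7% and 64.8% in the knockdown. The means were 46.8% ± 3.82 and 62.9% ± 2.06 (SD, n = 3 each), a difference of 16.1 percentage points with no overlap (exact two-sided permutation test, p = 0.1, the smallest possible). Without any 1 library the difference was 14.5 to 18.2 points. Of 9789 genes with coding and other transcripts, the groups did not overlap in 10.8%, and 225 genes (2.30%) had both no overlap and a difference at least as large as that of EPHB4. Retained-intron transcripts as a class took 5.86% to 6.30% of the counts of a library. Of 7833 of them tested, 3603 were lower in the knockdown, and the median of their log2 fold changes was 0.05.

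Summed over its protein-coding transcripts alone, EPHB4 had 42.6, 43.4 and 53.4 CPM of coding counts with siRNA-NC and 64.5, 57.1 and 64.3 with si-AC010789.1. The groups did not overlap, and the log2 fold change was 0.42 (SE 0.12), with a 95% interval of 0.13 to 0.70. It did not pass the test (edgeR, unadjusted p = 0.0115, adjusted p = 0.205). The coding sums of EPHA2, EPHB2, EFNA1, EFNA4, EFNB1 and EFNB2 overlapped between the groups. The share of all genes without overlap was not computed for coding sums, and for sums over all transcripts it was 25.1%. The separation of EPHB4 is thus no result by itself. How reads shared by transcripts were divided is not given in the sources used here. Exons of EPHB4 also overlap SLC12A9 on the other strand, and without the strand setting of the counting, reads of the 2 genes cannot be told apart.

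**Figure D4:**
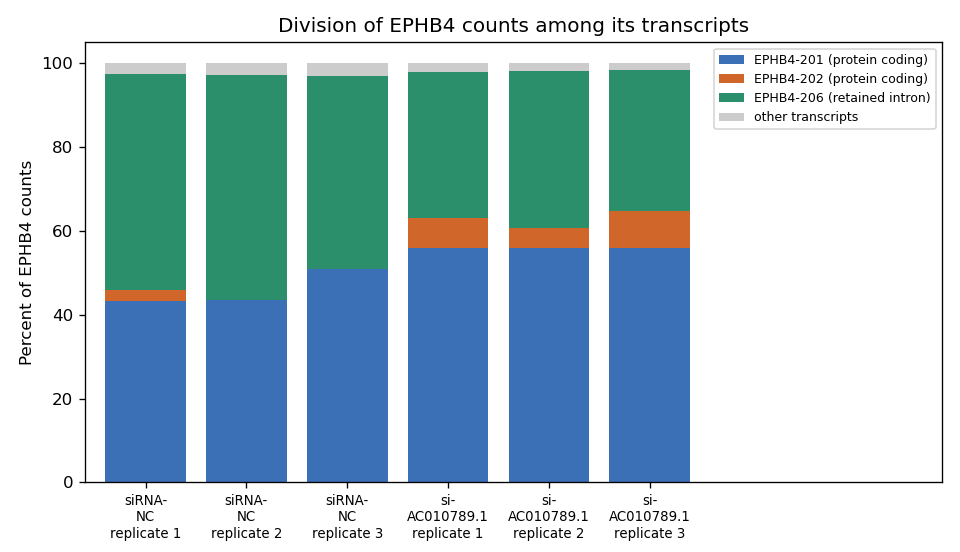
Percent of EPHB4 counts in each transcript, stacked to 100 for each of the 6 libraries. EPHB4-206 takes 46.0% to 53.8% of the counts in the siRNA-NC libraries and 33.5% to 37.5% in the si-AC010789.1 libraries.

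The other genes had no tested transcript for which the groups separated. Over the 27 transcripts, 16 passed the filter. Of these 16, 0 passed edgeR after adjustment, against 0.0135% of all transcripts tested, 1 had an unadjusted p under 0.05 (EPHB4-206), against 5.73%, and DESeq2 called the same 1, against 1.52%. The groups did not overlap for 2 of 16, EPHB4-206 and EPHB4-202, against 14% of all transcripts. Against such shares, these counts are no result about the 16 transcripts as a set. EPHA2 was counted almost wholly as its coding transcript EPHA2-201 (976 residues), with 2296, 2678 and 2860 counts in the control and 2587, 2578 and 2703 in the knockdown. Of the minor EPHA2 transcripts, EPHA2-202 (42 to 126 counts) and EPHA2-204 (11 to 36 counts) had their lowest and their highest value in the control group.

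The transcript of EFNA1 with the most counts in 5 of 6 libraries was EFNA1-203, a non-coding processed transcript, with 184, 250 and 177 counts in control libraries and 136, 212 and 123 in knockdown libraries. Its main coding transcript EFNA1-202 (205 residues) held 101, 164 and 143 counts and 129, 104 and 182 counts, and took the most in replicate 3 of the knockdown. EFNA1-204, also a processed transcript, held between 6 and 62 counts within the knockdown group. The coding share of EFNA1 was 34.2% ± 3.61 with siRNA-NC and 42.3% ± 14.8 with si-AC010789.1 (SD, n = 3 each), so the difference lay within the spread of the knockdown libraries (exact two-sided permutation test, p = 0.5).

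EFNA4 was counted as 2 coding transcripts. EFNA4-203 (207 residues) held 38, 66 and 61 counts in the control and 68, 57 and 64 in the knockdown, and EFNA4-202 (201 residues) held 7, 10 and 22 counts and 1, 8 and 1. The second was lower in 2 of the 3 knockdown libraries than in any control library, and did not pass the filter. EFNB1, EFNB2, EPHB3 and EPHA4 each had 1 counted transcript, so their transcript values were those of the gene.

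EPHB2 counts were divided differently among transcripts from library to library. EPHB2-203 (987 residues) held 14, 50 and 23 counts in the control and 30, 47 and 39 in the knockdown, and EPHB2-201 (946 residues) held 12, 24 and 45 counts and 29, 21 and 20. EPHB2-204 and EPHB2-207 held 21 and 16 counts in replicate 1 of siRNA-NC and no count in the other 5 libraries. The gene sums of EPHB2 stayed between 60 and 75 counts, so single-transcript values of EPHB2 had a wider spread than the sum.

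The 3′ UTRs were searched for sites of miR-432-3p, the microRNA that the study linked to AC010789.1. Its mature sequence (RefSeq, GRCh38.p14, chr14:100884544-100884564, plus strand) is shown with the seed, bases 2 to 8, in capitals.
miR-432-3p: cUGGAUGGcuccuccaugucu

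The 2 motifs searched were CCATCCA, the reverse complement of the seed, and CATCCAA, that of bases 2 to 7 followed by A. They overlap by 6 bases and were sought on the sense strand. Of the 9 genes with an annotated 3′ UTR in a counted transcript, 1 held a site, against 2297 of 12274 tested genes (18.7%). The 9 include EPHB3 and EPHA4, which did not pass the filter on low counts, whereas all 12274 did. The site lay in EFNB1-201, at position 1253 of a UTR of 1493 nucleotides (chrX:68841897-68841923, plus strand, with 10 bases on each side), and is shown with the match in capitals.
EFNB1-201: ggccctcacaCCATCCAcctccacact

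A match is a description of the sequence. The log2 fold change of EFNB1 was -0.05, as given beside its values.

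The rest of the family was read beside these genes. Of 12 other Eph receptors and ephrins, 9 had counted transcripts and 5 passed the filter (EFNA2, EFNA3, EFNA5, EPHA5 and EPHA7). Of these 5, edgeR called 0 and 0 had an unadjusted p under 0.05, and DESeq2 called 0, giving an adjusted p for EFNA5 alone. The shares over all genes were again 0.982%, 17.2% and 3.78%, the last over genes with or without an adjusted p. At such shares 0 of 5 is no result about these genes. Their log2 fold changes were 0.59 for EFNA2, 0.01 for EFNA3, -0.05 for EFNA5, -0.30 for EPHA5 and -0.31 for EPHA7, and the groups overlapped for each, against 25.1% of all genes in which they did not.

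Genes that act downstream of the receptors and ligands were read in 4 lists, 62 genes of which 55 were tested. Of the 55, 1 passed edgeR after adjustment, which was lower, 14 had an unadjusted p under 0.05 and 6 passed DESeq2. The fold changes were higher for 30 and lower for 25, with a median of 0.01. These shares are read against the same backgrounds of 0.982%, 17.2% and 3.78%.

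Among 22 tested adaptors, kinases and phosphatases of forward signaling, 0 passed edgeR after adjustment, 6 had an unadjusted p under 0.05 and 3 passed DESeq2. PTPN11, a phosphatase recruited by receptor tyrosine kinases, had 331 ± 13.6 and 387 ± 3.67 CPM (SD, n = 3 each), a log2 fold change of 0.22 (edgeR adjusted p = 0.0824, DESeq2 0.0130). ABL1, a kinase that binds Eph receptors, had 260 ± 17.7 and 215 ± 6.14 CPM, a log2 fold change of -0.27 (edgeR adjusted p = 0.1004, DESeq2 0.0278).

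Among 19 tested GTPases, their regulators and effectors, 0 passed edgeR after adjustment, 4 had an unadjusted p under 0.05 and 2 passed DESeq2. PAK1, a kinase activated by RAC1 and CDC42, had 17.8, 18.3 and 16.4 CPM with siRNA-NC and 10.4, 11.8 and 12.4 CPM with si-AC010789.1. The groups did not overlap in CPM, as for 25.1% of all genes tested. The log2 fold change of PAK1 was -0.60 (SE 0.11; edgeR adjusted p = 0.0658, DESeq2 0.0122). In TPM, PAK1 had 13.2 ± 1.33 with siRNA-NC and 12.1 ± 1.36 with si-AC010789.1 (SD, n = 3 each). ELMO2, a part of an exchange factor complex for RAC1, had 33.2 ± 2.32 and 24.4 ± 2.16 CPM, a log2 fold change of -0.44 (edgeR adjusted p = 0.104, DESeq2 0.0331).

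Of 6 tested partners of reverse signaling, 0 passed either tool and 2 had an unadjusted p under 0.05. These were SDCBP, which binds the PDZ-binding end of ephrin-Bs, with a log2 fold change of 0.36 (edgeR adjusted p = 0.162), and PARD6A, a polarity protein, with -0.44 (edgeR adjusted p = 0.253).

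Among 8 tested proteases that shed or cut receptors and ligands, 1 passed both tools. APH1A, a subunit of gamma-secretase, had 33.8, 41.0 and 32.0 CPM with siRNA-NC and 17.8, 19.0 and 16.2 CPM with si-AC010789.1. It fell by 1.01 on the log2 scale (SE 0.12; edgeR adjusted p = 0.0260, DESeq2 8.98e-08). In TPM the fall of APH1A was smaller, with 44.9 ± 3.06 with siRNA-NC and 34.0 ± 4.06 with si-AC010789.1 (SD, n = 3 each). Without any 1 of the 6 libraries the edgeR call was lost, with adjusted p from 0.0653 to 0.105 and log2 fold changes from -1.08 to -0.90, and it was lost with the replicate number as a block (adjusted p = 0.113). Its transcripts did not all lie on the same side, with log2 fold changes of -0.91 for the coding APH1A-202, -2.87 for the coding APH1A-203 and 1.58 for the retained-intron APH1A-208 (edgeR adjusted p = 0.696, 0.443 and 0.517). Exons of APH1A overlap C1orf54 on the other strand. PSEN2, a catalytic subunit of the same enzyme, had a log2 fold change of 0.27 (edgeR adjusted p = 0.224, DESeq2 0.359).

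**Figure D5:**
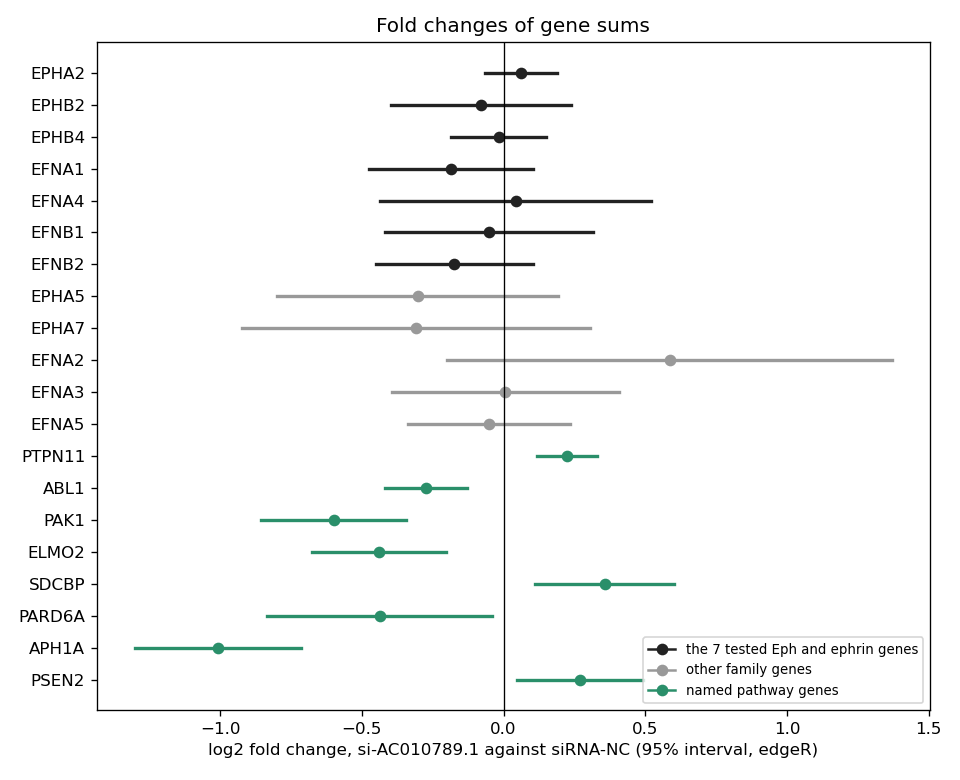
Log2 fold change of gene sums, si-AC010789.1 against siRNA-NC, with 95% intervals from edgeR (n = 3 each). The 7 Eph and ephrin genes that passed the filter lie between -0.19 and 0.06 with intervals that include 0, and APH1A, at -1.01, is the only gene drawn with an adjusted p under 0.05.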

How the data were processed

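RNA was sequenced from HCT116 cells with siRNA-NC or si-AC010789.1, 3 libraries each, grouped by the sample labels and described in the study as biological repeats. P-values measure the spread between these libraries. The authors deposited counts, whole numbers of reads for each Ensembl transcript with no normalization, in a table that lists no transcript with a total below 3. Libraries were paired-end TruSeq libraries run on a NovaSeq, the paper names Cuffdiff, and the submitters' processing notes name CASAVA 1.8, TopHat2 2.0.6 and the builds GRCh38 and mm10, without a role. The counting program, its strand setting and its annotation are not given in the sources used here.

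Of 98886 transcripts, 98782 were matched to GENCODE v29 (GRCh38) and summed into 18750 genes, with 99.9% of the counts of each library, and 104 were unmatched. Genes and transcripts were tested over the whole table with edgeR 4.0.16 (TMM, filterByExpr with a minimum count of 10, quasi-likelihood test, Benjamini-Hochberg adjustment, threshold 0.05) in R 4.3.3. CPM used TMM-scaled totals of the fit they belong to, and TPM used annotated lengths. Junctions, UTRs and the microRNA were read from GENCODE and RefSeq, which held the 1 microRNA sought. Python 3.11.15 was used with pandas 2.3.3, numpy 2.4.6, scipy 1.17.1 and matplotlib 3.10.9. The scripts were tested on simulated data.

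The genes, the lists and the tests were chosen with earlier results of these data known. Named were all 10 genes, the 3 most abundant transcripts of each and any with an unadjusted p under 0.05, the family genes that passed the filter, and, of the 4 downstream lists, genes with an adjusted p under 0.05 and the 2 lowest p of each list. EPHB2-207 and the APH1A transcripts were added after their values were seen, as was the exact test of the coding share. Alternatives were DESeq2 1.42.0, other scaling (RLE factors, total counts), no filter or a mean of at least 1 CPM, the replicate number as a block, coding transcripts alone, and leaving out each library. Same-numbered libraries deviated from their group means with correlations of 0.111, 0.0109 and 0.0164 over 13750 genes.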

Additional observations from a re-analysis of the deposited data

How the results depend on the processing

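Of the 7 genes tested, edgeR called 0 under every alternative run, as it did of 9 with no filter, and DESeq2 called 0 but gave no adjusted p for EPHB2, EFNA4 and EFNB1. For 22 genes and transcripts, 284 alternative log2 fold changes were computed: 261 kept their direction and their side of the threshold, 7 lost the threshold, 5 gained it and 11 changed sign, with the cause not tested. The 11 lay in genes that were never called. With coding transcripts alone EPHB4 was 0.42 and EFNA1 0.0891, and with no filter EFNA3 was -0.0028. Leaving out 1 library gave -0.0645 to 0.0222 for EPHB4, -0.121 to 0.1697 for EFNA4, -0.186 to 0.0586 for EFNB1, -0.125 to 0.0866 for EFNA3 and -0.153 to 0.00602 for EFNA5. Transcripts of the 10 genes called were 0 in edgeR and 1 in DESeq2. Downstream genes called were 1 in edgeR, 6 in DESeq2, 0 with the replicate block and 0 without any 1 library (lowest and highest 0).

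Over all 13750 genes the calls were 135 in edgeR, 520 in DESeq2, 127 with RLE factors, 134 with total counts and 133 of 13473 with the filter on mean CPM. They were 69 of 18750 with no filter, 56 of 12112 with coding transcripts alone, and 12 to 37 without 1 library. The replicate numbers were not taken as pairs, since only 1 of the 3 correlations of same-numbered libraries was over 0.1. Between different-numbered libraries the correlations ran from -0.0892 to 0.0791, under the 0.111 of replicate 1. The labels do not settle whether same-numbered libraries belong together. The study mentions that repeats used different generations of cells, and whether same-numbered libraries shared one is not given in the sources used here. With the replicate number as a block 0 genes were called, and APH1A had an adjusted p of 0.113. Depth limits EPHA4 and EPHB3, which lay under 3 counts, and the spread between libraries limits single transcripts, with a biological coefficient of variation of 0.698 against 0.17 for genes.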
